A study of Mus musculus with 8 samples.

Results

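Glutathione transferases are enzymes that join the thiol of glutathione to reactive compounds, or use glutathione to reduce them. The measured family divides into classes named by Greek letters, which differ in substrates and in the tissues that express them. In the testis, glutathione and its enzymes are known for handling electrophiles and lipid peroxides in developing germ cells and in the Sertoli cells that support them. The genes described here were 10 members of this family, 3 of the theta class (*Gstt1*, *Gstt2*, *Gstt3*), 2 of the mu class (*Gstm1*, *Gstm5*), 2 of the omega class (*Gsto1*, *Gsto2*) and 1 each of the pi (*Gstp1*), alpha (*Gsta4*) and zeta (*Gstz1*) classes, out of 55357 genes in the deposited table. *Gstt2* was chosen because it was lower in cKO in these same libraries, and the other 9 genes were taken by name as its relatives.

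RNA-seq was performed on germ cells from 8 male C57BL/6 mice at 15 days after birth. The 4 controls were *Mgat2*[F/F] and the 4 cKO mice were *Mgat2*[F/F]:*Stra8*-iCre, so that all 8 carried the floxed alleles and the cKO mice also a Cre transgene driven by the *Stra8* promoter, which is active in spermatogonia. *Mgat2* encodes the transferase that adds the second GlcNAc branch of complex N-glycans. Each mouse gave 1 library, and the comparison asks which genes differ when *Mgat2* is deleted in spermatogonia.

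Libraries held 12584726 to 15907505 expected counts, and a floor of 3 counts was worth 0.189 to 0.238 CPM (read counts scaled to library size and normalized between libraries). *Mgat2* itself was at 69.8, 31.8, 64.3 and 59.8 CPM in controls and at 35.2, 20.1, 37.6 and 16.0 CPM in cKO libraries, which overlapped by 1 control. The samples are labelled as germ cells, but markers of Sertoli cells were abundant. None of the 10 was at 0, and their summed TPM (a share of each library's transcripts, adjusted for transcript length) was 5937 to 7323 in controls and 6174 to 7313 in cKO. Replicate 1 stood apart in both genotypes. The 12 markers of pachytene spermatocytes, the meiotic cells that begin to accumulate around this age, summed to 3085 TPM in control 1 against 869 to 1395 in the other controls, and to 1036 TPM in cKO 1 against 415 to 494 in the other cKO libraries. Values are therefore also given for replicates 2 to 4 alone. In bulk RNA, fewer cells of a type and less RNA per cell cannot be told apart.

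The theta genes lie in 1 cluster on chromosome 10 of GRCm39, all on the minus strand: *Gstt3* (ENSMUSG00000001665) at chr10:75609940-75617256, *Gstt1* (ENSMUSG00000001663) at chr10:75618994-75634445 and *Gstt2* (ENSMUSG00000033318) at chr10:75666948-75673258. *Gsto1* and *Gsto2* are neighbours on chromosome 19, at chr19:47842686-47853229 and chr19:47853943-47874763 on the plus strand, and *Gstp1* lies on the minus strand of the same chromosome at chr19:4085405-4088068. *Gstm5* and *Gstm1* lie on chromosome 3, at chr3:107803137-107806005 (plus) and chr3:107919380-107925380 (minus). *Gsta4* is at chr9:78090056-78117763 (plus) and *Gstz1* at chr12:87193898-87225026 (plus). All 10 are annotated as protein coding in GENCODE M39.

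The 80 bases upstream of the start of the Ensembl canonical transcript of 4 members are shown, because 3 of them (*Gstt2*, *Gstt3* and *Gstm5*) had lower mean levels in cKO and *Gstt1*, which lies between the other theta genes, did not. *Gsto2*, whose mean was also lower, is not shown, since its window overlaps an annotated exon of another *Gsto2* transcript. Each is written 5′ to 3′ on the strand of its gene, from the GRCm39 genome, with matches to the motifs named after them in capitals.
Gstt2, chr10:75671208-75671287, minus strand: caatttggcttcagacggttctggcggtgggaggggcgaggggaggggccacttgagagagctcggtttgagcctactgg
Gstt3, chr10:75617249-75617328, minus strand: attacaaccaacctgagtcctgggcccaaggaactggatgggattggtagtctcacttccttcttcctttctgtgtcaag
Gstt1, chr10:75634446-75634525, minus strand: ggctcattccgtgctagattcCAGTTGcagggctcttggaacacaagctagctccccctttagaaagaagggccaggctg
Gstm5, chr3:107803057-107803136, plus strand: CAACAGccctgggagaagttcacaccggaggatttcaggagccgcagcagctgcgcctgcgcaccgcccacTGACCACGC

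Motifs of 4 kinds were searched on both strands of the 250 bases upstream of every canonical protein-coding start, 21770 in all. The antioxidant response element (TGACNNNGC), through which NRF2 acts on detoxification genes, was found in 9.69% of these promoters and, among the 10 members, in *Gstm5* alone, ending at the base before its start. The MYB motif (TAACNG or CAACNG), bound by the family of the meiotic regulator MYBL1, was found in 41.5% of promoters and in *Gstt1*, *Gstm5* and *Gstz1*. The cyclic AMP response element (TGACGTCA) was found in 1.69% of promoters and in no member, and the RFX half-site (GTTGCC), which overlaps a MYB match where it occurs in *Gstz1*, in 9.45%. None of these letters occurred in the windows of *Gstt2* and *Gstt3*, nor in those of *Gstm1*, *Gstp1*, *Gsta4*, *Gsto1* and *Gsto2*. The median GC content of all windows was 53.2%, and it was 54.0% for *Gstt2*, 44.4% for *Gstt3*, 52.0% for *Gstt1* and 52.0% for *Gstm5*. The printed window of *Gstt2* lies inside the span of the gene, since other annotated transcripts start further upstream. The window of *Gstt3*, from chr10:75617249, also reaches into its gene, which runs to chr10:75617256. *Gsto2* was left out for an overlap of this kind, so that rule was not applied to every window.

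*Gstt2* encodes a theta-class transferase known for conjugating sulfate esters and peroxides. Its CPM were 54.2, 30.3, 44.7 and 31.5 in controls 1 to 4 and 16.3, 13.3, 13.8 and 16.6 in cKO 1 to 4. Every cKO library was below every control, and the cKO libraries lay closer together than the controls. The means were 40.2 ± 11.4 and 15.0 ± 1.70 CPM (SD, n = 4 each), a log2 fold change of -1.42 (SE 0.19), or 2.68-fold lower. With replicates 2 to 4 alone the log2 fold change was -1.29 (SE 0.14). These values are a description, since the gene was chosen on them. Ratios of cKO to the control of the same number ran from 0.301 to 0.527, although the numbers were not taken as pairs.

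*Gstt3*, a theta-class relative from the same cluster, also had all cKO libraries below all controls. Its CPM were 16.8, 5.38, 9.48 and 5.78 in controls and 2.92, 4.14, 3.49 and 3.83 in cKO. Control 1 was the highest of the controls, whereas cKO 1 was the lowest of the cKO libraries. The log2 fold change was -1.38 (SE 0.34) over all libraries, -0.93 without control 1 and -0.85 (SE 0.25) with replicates 2 to 4 alone. Its reads were 44 to 64 expected counts per cKO library and 74 to 247 per control, so counting error is larger here than for *Gstt2*.

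*Gstt1*, the enzyme best known for dehalogenation of small halogenated compounds, was low throughout and did not share this difference. Its CPM were 2.17, 4.15, 3.54 and 3.59 in controls and 3.92, 5.31, 4.33 and 3.48 in cKO. The groups overlapped, and the log2 fold change was 0.34 (SE 0.26). On the TPM scale *Gstt2* made up 77.6 to 79.2% of the summed theta level in every control and 59.2 to 67.3% in every cKO library. The summed theta level was 85.7 ± 21.3 TPM in controls and 39.7 ± 3.76 TPM in cKO (SD, n = 4 each). Most of this sum is *Gstt2*, on which the choice was made, and *Gstt1* and *Gstt3* together were at 18.6 ± 4.77 and 15.0 ± 0.903 TPM.

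**Figure D1:**
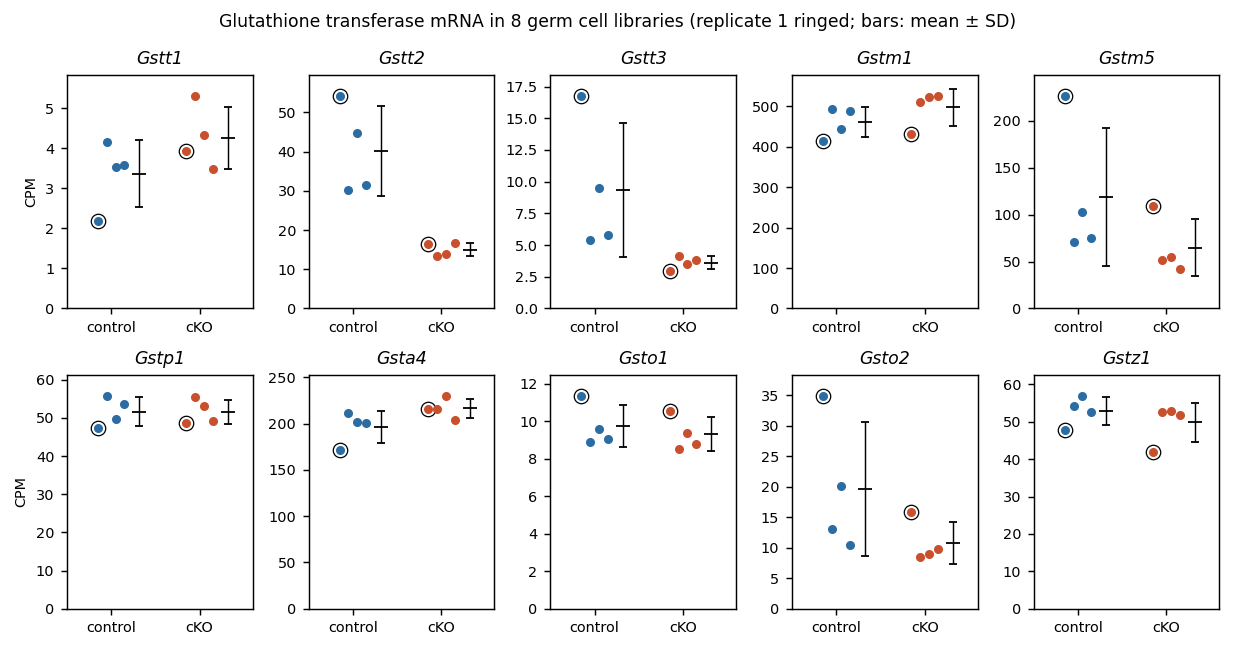
Normalized CPM of the 10 glutathione transferases in each of the 8 libraries, 1 panel a gene with its own axis from 0. Points are libraries, rings mark replicate 1, and the bar beside each group is the mean with its SD. Groups do not overlap in the panels of *Gstt2* and *Gstt3*, and replicate 1 is the highest point of both genotypes in *Gstm5*, *Gsto1* and *Gsto2*.

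The mu-class genes differed from each other. *Gstm1*, an abundant cytosolic detoxification enzyme, was at 415, 493, 445 and 488 CPM in controls and 431, 510, 523 and 526 CPM in cKO, with a log2 fold change of 0.11 (SE 0.085). Replicate 1 was the lowest library of each genotype. *Gstm5*, the mouse counterpart of the brain and testis enzyme GSTM3, was at 227, 70.7, 103 and 75.4 CPM in controls and 110, 52.0, 55.1 and 42.6 CPM in cKO. Here replicate 1 was the highest of each genotype, and cKO 1 was above 3 of the 4 controls. The log2 fold change of *Gstm5* was -0.87 (SE 0.50) over all libraries, -0.35 without control 1 and -1.25 without cKO 1. It was -0.73 (SE 0.18) with replicates 2 to 4 alone, where edgeR did not call *Gstm5* (adjusted p = 0.107). *Gstm5* was at 84.4% of the *Gstm1* level in TPM in control 1, at 22.2 to 35.7% in the other controls, at 39.1% in cKO 1 and at 12.3 to 16.5% in the other cKO libraries.

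The omega-class genes are neighbours whose enzymes reduce dehydroascorbate and arsenic compounds. *Gsto2* was at 34.9, 13.0, 20.2 and 10.5 CPM in controls and 15.9, 8.48, 9.0 and 9.79 CPM in cKO. Its replicate 1 was again the highest of each genotype, the groups overlapped, and the log2 fold change was -0.86 (SE 0.39). It was -0.43 without control 1, -1.11 without cKO 1 and -0.69 (SE 0.20) with replicates 2 to 4 alone. *Gsto1*, whose start lies 11257 bp away, was at 11.3, 8.88, 9.60 and 9.06 CPM in controls and 10.6, 8.54, 9.35 and 8.79 CPM in cKO, with a log2 fold change of -0.06 (SE 0.16). Its spread within a genotype was a small part of that of *Gsto2*.

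The remaining members were close to level between genotypes. *Gstp1*, the pi-class enzyme, had means of 51.6 ± 3.80 CPM in controls and 51.6 ± 3.22 CPM in cKO, and *Gsta4*, which removes the lipid peroxidation product 4-hydroxynonenal, 196 ± 17.3 and 217 ± 10.4 CPM (SD, n = 4 each). Their log2 fold changes were 0.00 (SE 0.088) and 0.14 (SE 0.077). *Gstz1*, the maleylacetoacetate isomerase of tyrosine breakdown, had a log2 fold change of -0.09 (SE 0.099), from 52.9 ± 3.86 to 49.8 ± 5.25 CPM. All 3 had overlapping groups. In the edgeR quasi-likelihood fit adjusted by Benjamini-Hochberg across the 20187 genes tested, 1 of the 10 members, *Gstt2*, was called at an adjusted p below 0.05, where 0.0396% of all genes were. This call was lost without control 3 and without any 1 of the 4 cKO libraries, and limma-voom called no member. None of the 9 relatives was called. Of the 9, 1 (*Gstt3*) was lower at an unadjusted p below 0.05, where 6.28% of all genes were. DESeq2 called *Gstt3* alone of the 9, where it called 1.85% of the 15453 genes with a DESeq2 adjusted p as lower. With replicates 2 to 4 alone *Gstt2*, *Gstt3* and *Gsto2* were called, where 3.78% of all genes were called as lower. The 9 relatives had a median log2 fold change of -0.06, beside 0.01 over all genes. Both genes without overlap between genotypes were lower in cKO, as were 3.03% of all genes, and nothing is read from these counts because the members were taken with this contrast known.

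**Figure D2:**
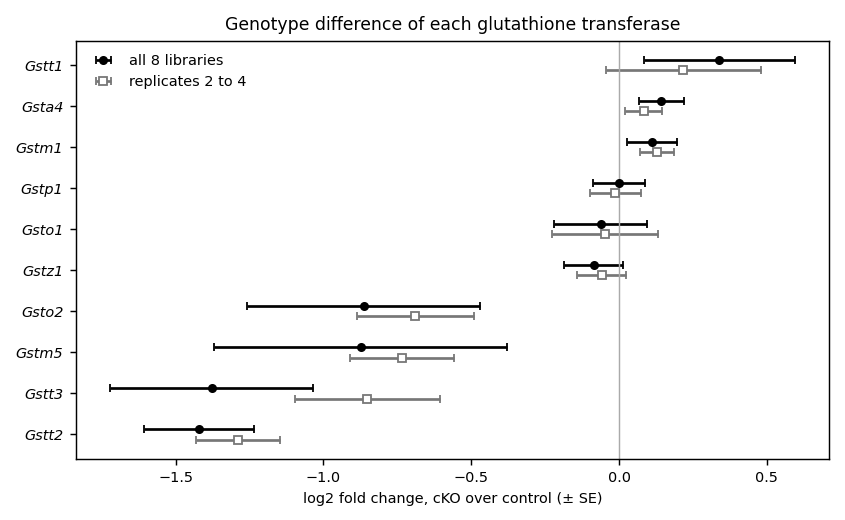
Log2 fold change of cKO over control for each member, ordered by value, with its SE from the edgeR fit. Filled circles use all 8 libraries and open squares replicates 2 to 4 alone. *Gstt2*, *Gstt3*, *Gstm5* and *Gsto2* lie between -1.42 and -0.69 in both fits, and the other 6 members lie between -0.09 and 0.34.

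Among the 10 members, *Gstm5*, *Gsto1* and *Gsto2* had replicate 1 as the highest library of both genotypes, as did 21.1% of all genes, and *Gstm1*, *Gstp1* and *Gstz1* had it as the lowest of both, as did 19.4%. The pachytene markers moved with the genotype as well, since 11 of the 12 were lower in cKO, with a median log2 fold change of -1.42. None of the 12 was called by edgeR, and 5 were lower at an unadjusted p below 0.05 (6.28% of all genes). DESeq2 called 2 of the 12 (1.85% of the 15453 genes with a DESeq2 adjusted p), and 2 others had no such p. EdgeR called 3 with replicates 2 to 4 alone (3.78% of all genes). Their summed TPM was 3085, 1038, 1395 and 869 in controls and 1036, 476, 494 and 415 in cKO, and their part in the differences of the members was not tested.

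**Figure D3:**
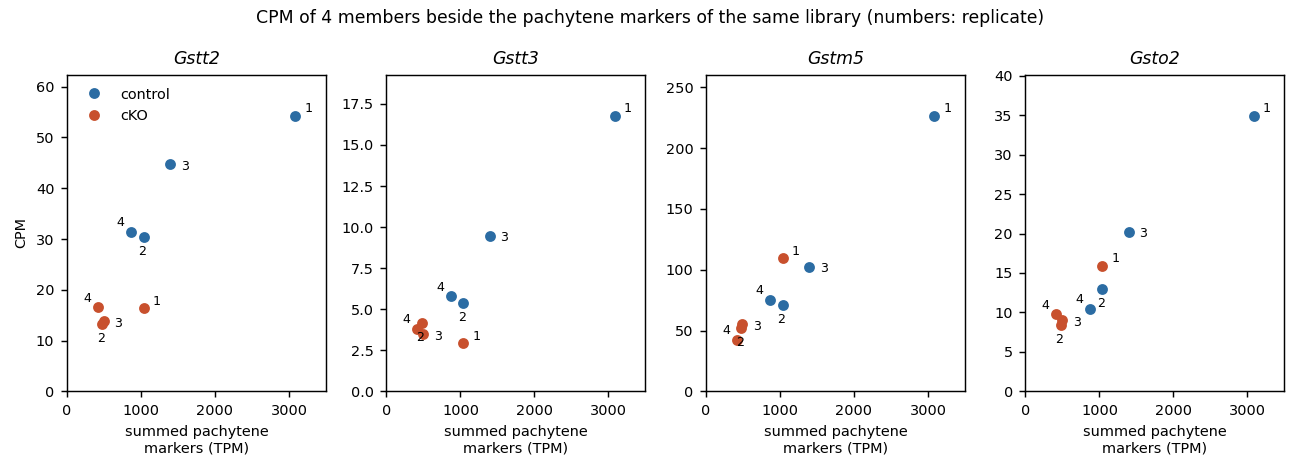
CPM of *Gstt2*, *Gstt3*, *Gstm5* and *Gsto2* (vertical axes) against the summed TPM of 12 pachytene markers in the same library (horizontal axes), numbered by replicate and coloured by genotype. Control 1 is the highest point of every panel, and cKO 1 lies within the range of the controls for *Gstm5* (110 CPM) and *Gsto2* (15.9 CPM).

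The other marker sets differed less between genotypes. Summed TPM of 8 spermatogonia markers was 890 to 1061 in controls and 1023 to 1239 in cKO, that of 8 early meiosis markers 930 to 1451 and 955 to 1157, and that of 8 spermatid markers 19.6 to 57.2 and 16.4 to 26.2. Of the spermatid markers *Prm1* and *Tnp2*, which define late spermatids, were at 0 in every library. Leydig and interstitial markers summed to 409 to 599 and 443 to 722 TPM, and endothelial and immune markers to 14.5 to 35.5 and 26.2 to 31.7 TPM. For these sets too, the part in the members' differences was not tested.

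Levels were compared between members on the TPM scale within each library. The choice of the relatives did not use this measure, but *Gstt2* was chosen for its cKO values, so its levels are a description with no test. In controls the order was *Gstm1* (737 ± 74.3 TPM), *Gsta4* (456 ± 47.1), *Gstm5* (291 ± 174), *Gstp1* (162 ± 16.4), *Gstt2* (67.2 ± 16.6), *Gstz1* (51.8 ± 4.12), *Gsto2* (30.2 ± 16.1), *Gsto1* (19.4 ± 1.24), *Gstt3* (11.2 ± 6.68) and *Gstt1* (7.37 ± 1.97; SD, n = 4 each). The range across the family was thus wide, and the mu and alpha enzymes led it. Of the 7 pairs of neighbours in this order without *Gstt2*, 4 differed by a two-sided exact sign-flip permutation test of log2(TPM + 1) over the 8 libraries, each with an adjusted p of 0.0281 (adjusted over all 9 pairs). These were *Gstm1* above *Gsta4* (mean log2 difference 0.67 ± 0.11, SD), *Gsta4* above *Gstm5* (1.27 ± 0.86), *Gstz1* above *Gsto2* (1.19 ± 0.72) and *Gsto1* above *Gstt3* (1.28 ± 0.61). The order held in 8 of 8 libraries for the first of these pairs and in 7 of 8 for the others, with control 1 the exception. The smallest p that this test allows is 0.0078. The order was set from the control means, and the 4 controls are among the 8 libraries tested. These p therefore depend in part on the choice of pairs. The 4 cKO libraries, which did not set the order, held it in all 4 pairs. The 4 pairs kept an adjusted p of 0.0281 without control 1, had 0.0563 without any 1 of the other libraries, and had 0.0563 with replicates 2 to 4 alone, where the order held in 6 of 6 libraries but the smallest p is 0.0313.

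*Gstt2* lay below *Gstp1* in 8 of 8 libraries, by 1.28 ± 0.46 in controls and 2.66 ± 0.27 in cKO on the log2(TPM + 1) scale (SD, n = 4 each). It lay above *Gstz1* in the 4 controls, at 54.8 to 89.9 TPM for *Gstt2* against 45.7 to 54.8 TPM for *Gstz1*, and below it in the cKO libraries, at 22.2 to 30.1 TPM for *Gstt2* and 42.0 to 53.4 TPM for *Gstz1*. *Gstt2* thus had rank 5 of 10 in control and rank 6 of 10 in cKO. The 3 other pairs did not differ beyond their spread. *Gstm5* and *Gstp1*, *Gsto2* and *Gsto1*, and *Gstt3* and *Gstt1* had adjusted p of 0.422, 0.402 and 0.500 in the same exact permutation test (n = 8). *Gstt1* was above *Gstt3* in TPM in all 4 cKO libraries and in 1 control. The summed level of the 9 relatives was 1766 ± 80.9 TPM in controls and 1702 ± 37.8 TPM in cKO (SD, n = 4 each).

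**Figure D4:**
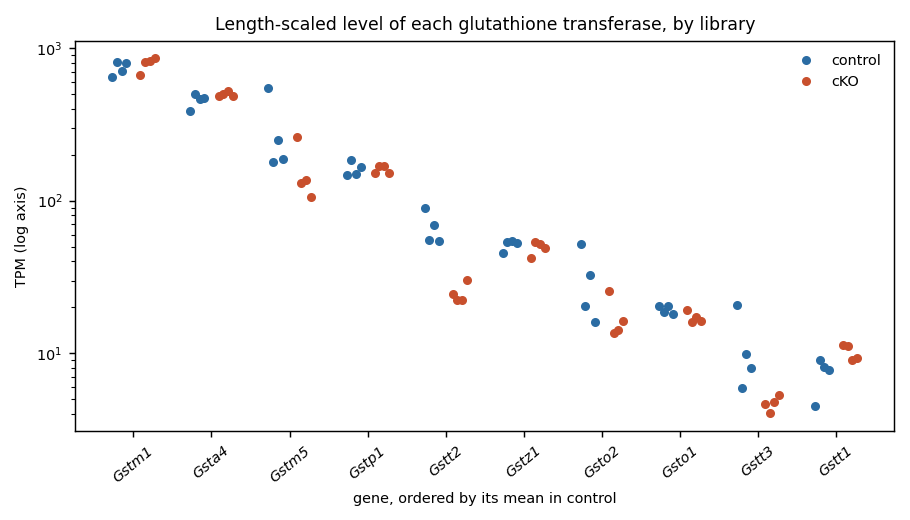
TPM of each member in each library on a log axis, ordered by the control mean, with controls and cKO libraries side by side. *Gstm1* leads in both genotypes at 737 and 788 TPM, and the points of *Gstt2* lie above those of *Gstz1* in controls and below them in cKO.

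RSEM divides reads that fit several transcripts between genes, so sequence shared with other genes bears on these values. Of the 31-base words in its annotated transcripts, *Gstt2* shared 3.95% with other genes and *Gstt1* 1.59%, *Gsta4* 0.53% and *Gsto2* 0%. *Gstt3* shared 18.9%, most of it with *Gm20441*, a gene that runs from *Ddt* into *Gstt3* and had at most 1 count in a library. *Gstp1* shared 35.4% with *Gstp2*, its near-identical copy, which had 20 to 54 counts, and *Gstz1* 25.8%, *Gstm1* 14.8% and *Gsto1* 10.1% with neighbours or pseudogenes, so these levels are less certain. *Gstm5* shared 10.4% with *4933431E20Rik*, an antisense gene with 218 to 288 counts. The libraries were not stranded, so reads of this pair cannot be told apart where they overlap. The transcript length by which RSEM scaled *Gstt2* stayed within 93.5 to 108% of its mean over libraries, whereas that of *Gstt3* ran from 75.1 to 126% and that of *Gstt1* from 76.4 to 109%, both lowest in cKO 1. The TPM of *Gstt3* and *Gstt1*, and with them the theta share and the order of these 2 genes, are therefore less precise than their counts.

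Around *Gstt2*, 23 annotated genes start within 100000 bp of its start, 14 of them were in the deposited table and 11 were tested. *Gstt4*, the theta gene that lies next to *Gstt2*, had at most 4 counts in a library and was not tested. *Gstt2* and *Gstt3* were the 2 of the 11 with all cKO libraries below all controls, as were 3.03% of all genes. The window was centred on *Gstt2*, which was chosen for being lower, so nothing is read from this count. *Ddt*, which encodes D-dopachrome tautomerase and starts next to *Gstt3*, was at 71.1, 35.7, 43.3 and 30.6 CPM in controls and 34.4, 21.9, 27.0 and 22.8 CPM in cKO. Replicate 1 was the highest of each genotype, and cKO 1 was above 1 control. The log2 fold change of *Ddt* was -0.77 (SE 0.27), which edgeR did not call (adjusted p = 0.478). It was -0.62 (SE 0.12) with replicates 2 to 4 alone. EdgeR called it there (adjusted p = 0.00093), where 3.78% of all genes were called as lower. The genes on the other side of *Gstt2* were close to level, with log2 fold changes of 0.11 for *Mif*, 0.12 for *Derl3*, -0.09 for *Smarcb1*, 0.05 for *Chchd10* and 0.11 for *Mmp11*. *Cabin1*, beyond *Ddt*, was at 0.00 (SE 0.077).

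**Figure D5:**
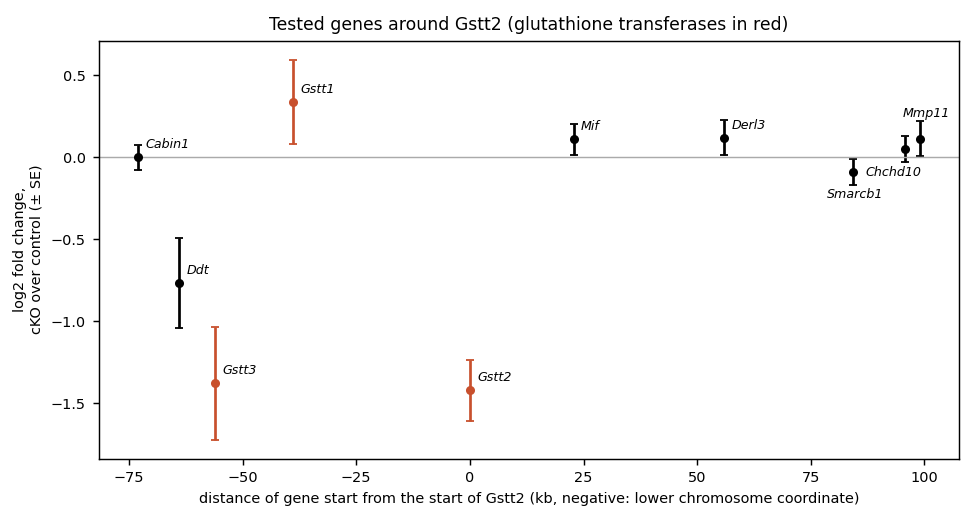
Log2 fold change of cKO over control with its SE for 10 tested genes whose starts lie within 100 kb of the start of *Gstt2*, against the distance between the starts. Glutathione transferases are red, and a pseudogene with 1 count in all is not drawn. *Gstt2* (-1.42), *Gstt3* (-1.38) and *Ddt* (-0.77) lie below the line, *Gstt1* lies between them at 0.34, and the others lie within 0.12 of 0.

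Of 18 further members of the family, 13 were tested. They had a median log2 fold change of 0.12, beside 0.01 over all genes, with 5 lower and 8 higher in cKO. EdgeR called none, where it called 0.0396% of all genes. DESeq2 called none, where it called 1.97% of the 15453 genes with a DESeq2 adjusted p, which 2 of the 13 lacked. The lack of calls is near these shares. At an unadjusted p below 0.05, 1 of the 13, *Mgst1*, was higher, where 2.62% of all genes were. *Mgst1*, a microsomal transferase of membranes, was at 67.0 ± 4.79 CPM in controls and 81.8 ± 7.55 CPM in cKO (SD, n = 4 each), a log2 fold change of 0.29 (SE 0.089), with every cKO library above every control, as were 2.47% of all genes. The abundant mu genes *Gstm2* (393 ± 41.9 and 425 ± 43.2 CPM), *Gstm6* (249 ± 20.7 and 271 ± 31.3 CPM) and *Gstm7* (209 ± 10.7 and 227 ± 16.5 CPM) had log2 fold changes between 0.11 and 0.12 with overlapping groups. *Gstt4*, *Gsta1*, *Gstm3* and *Mgst2* had at most 11 counts in a library and were under the expression filter.

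The glutathione pathway around the transferases was listed as 69 genes, of which 59 were tested. None was called by edgeR, which called 0.0396% of all genes. None was called by DESeq2, which called 1.97% of the 15453 genes with a DESeq2 adjusted p, and 1 of the 59 lacked it. The lack of calls is near these shares. In cKO 16 of the 59 were lower and 43 higher, where 10364 of 20187 genes were higher. The median log2 fold change was 0.09, beside 0.01 over all genes. At an unadjusted p below 0.05, 2 were lower, where 6.28% of all genes were, and 4 were higher, where 2.62% were. Those lower were *Abcc3*, an exporter of conjugates, at 3.35 ± 2.52 CPM in controls and 1.12 ± 1.02 CPM in cKO (log2 fold change -1.57, SE 0.66), and *Hagh*, which hydrolyses the glutathione thioester made by glyoxalase, at 57.1 ± 20.2 and 40.5 ± 3.90 CPM (-0.50, SE 0.21). With replicates 2 to 4 alone these were -1.82 (SE 0.48) for *Abcc3* and -0.28 (SE 0.093) for *Hagh*. Those higher were the peroxiredoxins *Prdx1* (log2 fold change 0.22) and *Prdx3* (0.21), the transcription factor gene *Nfe2l2* (0.17), which encodes NRF2, and its target *Nqo1* (1.13, SE 0.43). With replicates 2 to 4 alone *Prdx1* was at 0.11 and *Prdx3* at 0.13 on the same scale. *Nqo1* was low, at 0.691 ± 0.255 CPM in controls and 1.52 ± 0.383 CPM in cKO, on 5 to 29 counts per library. Every cKO library was above every control for *Nqo1*, *Prdx3* and the peroxiredoxin *Prdx6*, as for 2.47% of all genes.

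None of the 13 tested genes of glutathione synthesis and recycling was below an unadjusted p of 0.05, where 8.9% of all genes were. Their log2 fold changes ran from -0.07 to 0.32. Among them *Gclc*, the catalytic subunit of the first enzyme of glutathione synthesis, was at 80.8 ± 4.57 and 88.4 ± 5.00 CPM, *Gss*, glutathione synthetase, at 20.9 ± 3.61 and 22.3 ± 3.89 CPM, and *Gsr*, glutathione reductase, at 112 ± 12.9 and 129 ± 17.3 CPM. Of 20 peroxidases and thiol reductases 7 were lower and 13 higher. *Txnrd3*, a thioredoxin and glutathione reductase known from the testis, was at 120 ± 47.5 CPM in controls and 87.1 ± 21.0 CPM in cKO with overlapping groups. It was called with replicates 2 to 4 alone (edgeR, adjusted p = 0.029), where 3.78% of all genes were called as lower. *Gpx4*, the lipid hydroperoxide peroxidase needed for sperm, was at 135 ± 48.8 and 120 ± 33.9 CPM (log2 fold change -0.16, SE 0.29, or -0.09 with replicates 2 to 4 alone). Of 11 genes of the NRF2 system 10 were higher, with a median log2 fold change of 0.17. Over all genes 10364 of 20187 were higher, with a median of 0.01, and none of the 11 was called. Of 10 tested genes of conjugate export and processing 4 were lower and 6 higher, and of 5 tested partner enzymes 2 were lower and 3 higher.

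The genes whose levels across the 8 libraries were most like those of *Gstt2*, among genes with a mean of at least 5 CPM, were *Pcsk4*, *Ak7*, *Cbl*, *Cfap74* and *Ptpn20*, with Pearson's r of log2 CPM from 0.976 to 0.992. The points of such a correlation share the genotype difference and the place of replicate 1, and r is given as a description. *Pcsk4*, a proprotein convertase of germ cells, was at 19.9 ± 3.85 and 7.76 ± 0.762 CPM, and *Cfap74*, a protein of motile axonemes, at 44.1 ± 13.6 and 16.3 ± 2.72 CPM (SD, n = 4 each). *Cbl*, a ubiquitin ligase, moved over a smaller range, from 183 ± 11.0 to 149 ± 6.99 CPM. When only deviations from the genotype means were compared, 5 other genes came first, *Eif5*, *Tex264*, *Tapt1*, *1110002L01Rik* and *Zfp318* (r from 0.977 to 0.993), and all 5 had overlapping groups.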

How the data were processed

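Germ cells of 8 mice, 4 per genotype, gave 1 polyadenylated, non-stranded, paired-end library each. Per the labels, reads were aligned to mm39 with STAR 2.7.9a and quantified with RSEM 1.3.3, and the annotation was Ensembl 105. The authors deposited RSEM's expected counts per gene, without normalization between samples, and its TPM values, scaled within each library for transcript length. Of nonzero expected counts 15.2% were not whole, and all were rounded.

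Tests covered the 20187 genes that reached a TPM of 1 in any sample. Genotypes were compared with edgeR 4.0.16 (TMM, robust quasi-likelihood F-test, no covariate) in R 4.3.3, with Benjamini-Hochberg adjustment and a threshold of 0.05. CPM are normalized with TMM factors. Length-scaled levels of members next to each other in the order of the control means were compared with exact sign-flip tests. Of these tests, the edgeR test alone was tried on simulated counts. Alternatives used DESeq2 1.42.0, limma 3.58.1 (voom), other size factors and filters, the replicate number as a block, replicates 2 to 4 alone and leaving out each library. Depth was 12584726 to 15907505 expected counts per library, and the floor of 3 counts covers counting error only.

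Positions and promoter sequence came from GRCm39 with GENCODE M39, the build of the alignment. Transcript words of 31 bases were compared over all annotated transcripts. Genes named are *Mgat2*, the members, genes of fixed lists, genes that start within 100000 bp of *Gstt2*, and the 5 most like it by each of 2 correlations. *4933431E20Rik*, *Gm20441* and *Gm66470* were added after their overlap was seen. The members and lists were chosen with earlier results of these data known. Each library is a separate mouse.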

Additional observations from a re-analysis of the deposited data

Results flagged for a closer look

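In 20 groups of 4 libraries, 1 per member and genotype, the lowest or the highest library was set against Dixon's 95% critical value by its gap to the nearest library over the range of the group. For *Gstm1* in cKO, replicate 1 was the lowest at 431 CPM, with the nearest library at 510 CPM, a gap of 0.831 of the range, just past Dixon's critical value for 4 values. For *Gstz1* in cKO, replicate 1 was the lowest at 42 CPM, with the nearest library at 51.9 CPM, a gap of 0.921 of the range. Chance alone flags about 1 in 20 groups. Both are in the library in which the pachytene markers were the highest of the cKO group, at 1036 TPM against 415 to 494 TPM, and its part in these values was not tested.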

How the results depend on the processing

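When 1 library was left out, the log2 fold change of *Gstt2* ran from -1.54 to -1.24 and the median of the relatives from -0.08 to -0.01. Those of *Gstm5* (-1.25 to -0.35), *Gstt3* (-1.57 to -0.93) and *Gsto2* (-1.11 to -0.43) moved more, and their size depends on single libraries. Over all genes edgeR called 8, DESeq2 304, upper-quartile normalization 18, library totals 17, no expression filter 35, replicates 2 to 4 alone 855, and limma-voom and a minimum mean of 10 counts 0. Leaving out 1 library gave 0 to 32. Of the members, DESeq2 called 2, replicates 2 to 4 alone 3, limma-voom and the minimum mean of 10 counts 0, and leaving out 1 library 0 to 1. With replicates 2 to 4 alone 1 of the other transferases (*Mgst1*) and 2 pathway genes (*Txnrd3* and *Abcc3*) were called. In that fit 4.24% of all genes were called in either direction.

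The replicate number as a block called 1464 genes, 4 members (*Gstt2*, *Gstt3*, *Gstm5* and *Gsto2*), 1 other transferase, 3 pathway genes and 8 of the 12 pachytene markers, where 7.25% of all genes were called. Both genotypes carry the numbers 1 to 4, but no source states a shared litter or batch. Deviations of same-numbered libraries from their genotype means correlated across genes at 0.677, 0.268, 0.091 and 0.329. The mean was 0.341, beside -0.088 for libraries of different numbers. Control 2 correlated best with cKO 4 (0.338), and control 4 about equally with cKO 2 (0.332) and cKO 4 (0.329). Since no shared litter or batch is stated, the numbers were not taken as pairs.

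Of the 9 pairs of neighbouring levels, the 2 with *Gstt2* included, 5 differed, 0 with replicates 2 to 4 alone, and 0 to 5 when 1 library was left out (5 without control 1, 0 without any other). Of the 5 genes most like *Gstt2*, 1 was kept on log2(TPM + 1) and 1 to 4 without 1 library. For deviations from genotype means 0 and 1 to 3 were kept. Depth limits *Gstt1* and *Gstt3* most, at 32 to 82 and 44 to 247 counts per library.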
